A study of Mus musculus with 8 samples.

Results

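The 9 genes described here are the inhibitors of cyclin-dependent kinases Cdkn1a, Cdkn1b, Cdkn1c, Cdkn2a, Cdkn2b and Cdkn2c and the D-type cyclins Ccnd1, Ccnd2 and Ccnd3, out of 22367 protein-coding genes of the annotation. They were chosen by name, and peaks of open chromatin were assigned to them at their start sites (nearest edge of the peak within 1000 bases of an annotated transcript start) and in the gene or within 20 kb of it. Cells came from the marrow of C57BL/6J wild-type mice at 6 weeks of age, and the study sorted stromal cells from the fraction without blood and endothelial surface proteins and with Sca-1 and PDGFRα. There were 7 ATAC-seq libraries titled ATAC1 to ATAC7 and 1 Input library, which was the control for all of them. All groups shared genotype, strain and age, and the labels name no agent. Which sorted population a title stands for is not in the labels, so libraries are named by title. Each title had 1 library, so no difference between titles was tested and all intervals cover counting error only. Whether the cells of a library came from pooled animals is not given in the sources used here.

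D-type cyclins bind the kinases CDK4 and CDK6 and start the phosphorylation of the retinoblastoma protein, which frees E2F factors and lets a cell leave the G1 phase. Inhibitors of the INK4 family (Cdkn2a, Cdkn2b, Cdkn2c) bind CDK4 and CDK6 themselves, whereas those of the CIP/KIP family (Cdkn1a, Cdkn1b, Cdkn1c) bind complexes of cyclins and CDKs more widely. In bone marrow, stromal progenitors are known to divide rarely in the animal and readily in culture. ATAC-seq marks DNA that the Tn5 transposase could reach. An open start site is not a measure of transcription, and fewer cells with an open site cannot be told apart from a site that is less open in every cell.

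The labelled cell type was compared with marker genes at their start sites. Of 10 stromal markers, 1 had a start-site peak in ATAC4, 2 in ATAC3, 3 in ATAC1, 5 in both ATAC6 and ATAC7, and 6 in both ATAC2 and ATAC5. Pdgfra, which encodes the PDGFRα of the sort, had none in ATAC1 and ATAC3, Pdgfrb had none in ATAC3 and ATAC4, and Ly6a (Sca-1), Prrx1, Lepr and Vcam1 had none in any library. Of 10 haematopoietic markers 3 to 6 had a peak, with Spi1 and Ikzf1 called in all 7 libraries, while Cd3e, Gata1 and Csf1r had none. Of 10 endothelial markers, 4 had a peak in ATAC5, 2 in ATAC6, 1 in ATAC2 and 0 in the others. Among all protein-coding genes, the share with a start-site peak ranged from 42.1% in ATAC7 to 52.9% in ATAC5.

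Start sites differed among the 9 genes. A start-site peak was listed in all 7 libraries for Cdkn1b, Cdkn1c, Cdkn2b, Cdkn2c, Ccnd2 and Ccnd3, in 6 libraries for Cdkn2a, in 5 for Cdkn1a and in 1 for Ccnd1. Of all protein-coding genes 37.0% had such a peak in all libraries, 3.12% in 1 library only and 43.1% in none, whereas each member had one in at least 1 library. All 9 members had one in ATAC6 (51.7% of all protein-coding genes). In ATAC1 (49.1%), ATAC2 (50.4%), ATAC3 (43.6%) and ATAC5 (52.9%) there were 8 members, in ATAC4 (43.8%) 7 and in ATAC7 (42.1%) 6. The lists themselves ranged from 15188 peaks in ATAC7 to 32280 in ATAC2. A site without a listed peak may still have reads, since the tables hold counts for peaks only.

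The start sites of the neighbours Cdkn2a and Cdkn2b are shown first by their sequence. Each line is the 250 bases before a start site, 5′ to 3′ on the strand of the gene, read from the mm9 genome. Capitals mark matches, on either strand, to the GC box (GGGCGG), the CCAAT box, an E2F motif in any of 3 forms, the E-box (CACGTG), most of a cyclic AMP response element (TGACGT), the AP-1 motif (TGACTCA) or the TATA box (TATAAA). The E2F motif was searched as TTTGGCG, as a form with the letters TTTCGCG, and as a further form with the letters TTTCCCG. The pair from Cdkn2a contrasts its promoters, and Cdkn2b is the member whose deposited fold over Input differed most between libraries.
Cdkn2a exon 1β (chr4:88940558-88940807, minus strand): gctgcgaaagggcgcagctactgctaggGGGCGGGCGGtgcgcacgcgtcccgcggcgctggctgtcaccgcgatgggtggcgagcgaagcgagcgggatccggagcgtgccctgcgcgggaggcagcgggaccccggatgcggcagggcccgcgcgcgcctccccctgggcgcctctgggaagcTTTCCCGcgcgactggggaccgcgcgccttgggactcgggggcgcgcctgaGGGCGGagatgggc
Cdkn2a exon 1α (chr4:88928097-88928346, minus strand): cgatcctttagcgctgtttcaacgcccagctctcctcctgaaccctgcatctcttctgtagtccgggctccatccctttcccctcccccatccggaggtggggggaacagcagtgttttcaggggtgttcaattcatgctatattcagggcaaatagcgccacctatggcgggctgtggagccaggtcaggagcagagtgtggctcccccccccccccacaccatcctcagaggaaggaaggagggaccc
Cdkn2b (chr4:88956942-88957191, minus strand): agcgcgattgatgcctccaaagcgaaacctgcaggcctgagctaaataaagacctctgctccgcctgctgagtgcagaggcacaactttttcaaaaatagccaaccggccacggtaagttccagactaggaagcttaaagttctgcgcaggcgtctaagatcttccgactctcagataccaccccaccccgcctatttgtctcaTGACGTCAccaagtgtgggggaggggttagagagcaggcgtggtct

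The window before exon 1β of Cdkn2a held 38 CpG dinucleotides and 77.6% G and C, against 7 and 60% before exon 1α. The median over 22362 promoter windows was 8 CpG and 54%. Before exon 1β the GC box occurred 3 times and TTTCCCG was found in 1 place, while none of the motifs was found before exon 1α. Both occurrences of TGACGT in the Cdkn2b window overlap, as the palindrome in capitals reads the same on both strands. That window had 12 CpG and 53.6% G and C. Of all promoter windows 39.6% held the GC box, 35.0% the CCAAT box, 7.2% TGACGT and 3.30% TTTCCCG. The remaining motifs were found in 1.45% (TTTGGCG), 0.796% (TTTCGCG), 6.52% (CACGTG), 3.85% (TGACTCA) and 12.3% (TATAAA) of the windows, and in none of these 3 sequences. A match is only a run of letters and says nothing of binding.

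**Figure D1:**
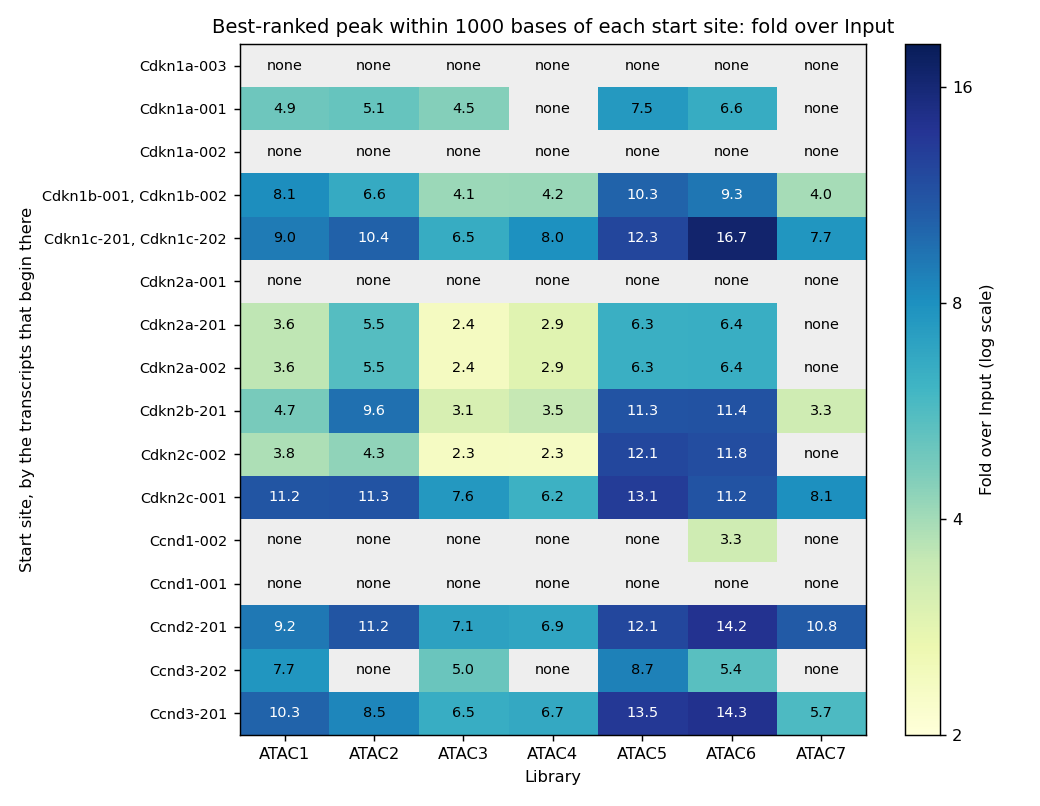
Authors' fold over Input of the best-ranked peak within 1000 bases of each annotated start site (rows, named by the transcripts that begin there) in each library (columns); colour is on a log scale and grey cells marked none had no listed peak. Exon 1α of Cdkn2a (Cdkn2a-001) and the coding start site of Ccnd1 (Ccnd1-001) had no peak in any library, whereas Cdkn1b, Cdkn1c, Cdkn2b, Ccnd2 and 1 start site each of Cdkn2c and Ccnd3 had one in all 7.

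Cdkn2a, Cdkn2b and Cdkn2c encode the INK4 inhibitors. Cdkn2a (chr4:88920377-88940557, minus strand) gives p16Ink4a from exon 1α and the p53 activator p19Arf from exon 1β. The exon 1α start site at 88928096 had no peak in any of the 7 libraries, and none was found within the gene between the promoters. Upstream of exon 1β, a region at chr4:88940569-88941437 was called in 6 libraries. The best peak held 111, 213, 160, 79, 215 and 244 reads in ATAC1 to ATAC6, against 31 to 68 Input reads, and no peak was listed in ATAC7. The fold over Input was 3.59, 5.52, 2.37, 2.89, 6.35 and 6.40 in the same order. The interval of ATAC3 (1.78 to 3.2) lay below those of ATAC2 (4.13 to 7.46), ATAC5 (4.73 to 8.64) and ATAC6 (4.81 to 8.64). Scaled by reads in regions called in all libraries, the folds were 3.50 in ATAC3, 5.12 in ATAC2, 3.90 in ATAC5 and 4.10 in ATAC6, and the intervals of these 4 libraries overlapped.

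Cdkn2b encodes p15Ink4b, an inhibitor known to be induced by TGF-β. It lies beside Cdkn2a at chr4:88952198-88956941 on the minus strand, so both windows hold the same 17 peaks. Its start-site region, chr4:88956527-88956926 in the 5′ UTR and the intron behind it, was called in all 7 libraries. It held 324 reads in ATAC1, 508 in ATAC2, 257 in both ATAC3 and ATAC4, 579 in ATAC5, 615 in ATAC6 and 239 in ATAC7. Input had 80 to 88 reads there in every library, so the differences came from the library reads and their scaling. The fold was 9.55 in ATAC2, 11.3 in ATAC5 and 11.4 in ATAC6, and 4.74 in ATAC1, 3.09 in ATAC3, 3.51 in ATAC4 and 3.30 in ATAC7. The intervals of ATAC2 (7.57 to 12.2), ATAC5 (8.99 to 14.3) and ATAC6 (9.07 to 14.5) lay above those of the other 4 libraries, whose upper bounds ranged from 4.0 to 6.10. The highest fold was 3.69 times the lowest, against a median of 2.87 over 8262 genes with a start-site peak in all libraries and at least 3 Input reads in each best peak, and 88.2% of those genes had a smaller ratio.

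Folds of most genes depended on the library. The median fold of the 8262 genes was 14.6 in ATAC5, 14.1 in ATAC6, 9.66 in ATAC1 and 9.54 in ATAC2, and 6.02 to 6.59 in ATAC3, ATAC4 and ATAC7. Of these genes 43.2% had their 3 highest folds in ATAC2, ATAC5 and ATAC6, as did Cdkn1c, Cdkn2b, Cdkn2c and Ccnd2 among the 6 members called in all libraries. On a relative level, the log2 of the fold over the median of that library, only 6.83% of the genes had these libraries as the highest 3. Cdkn2b was the only member that did. Its relative level was 0.00 in ATAC2, -0.38 in ATAC5 and -0.31 in ATAC6, and -1.03 in ATAC1, -0.99 in ATAC3, -0.91 in ATAC4 and -0.87 in ATAC7. When the libraries were scaled by their reads in regions called in all 7, the same libraries stayed highest for Cdkn2b, with a ratio of 2.01 between the highest and the lowest fold. Ccnd2 then had a ratio of 2.09, which rested on ATAC7 (15.6, interval 8.80 to 30.1) over ATAC5 (7.46, interval 5.14 to 11.2), intervals that overlapped, and was 1.39 without ATAC7. For Cdkn2b the interval of ATAC2 (7.03 to 11.3) still lay above those of ATAC1, ATAC3, ATAC4 and ATAC7 (upper bounds 5.68 to 6.26), but the intervals of ATAC5 (from 5.53) and ATAC6 (from 5.81) overlapped some of them. For the other 5 members called in all libraries, that scaling changed which 3 libraries were highest.

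**Figure D2:**
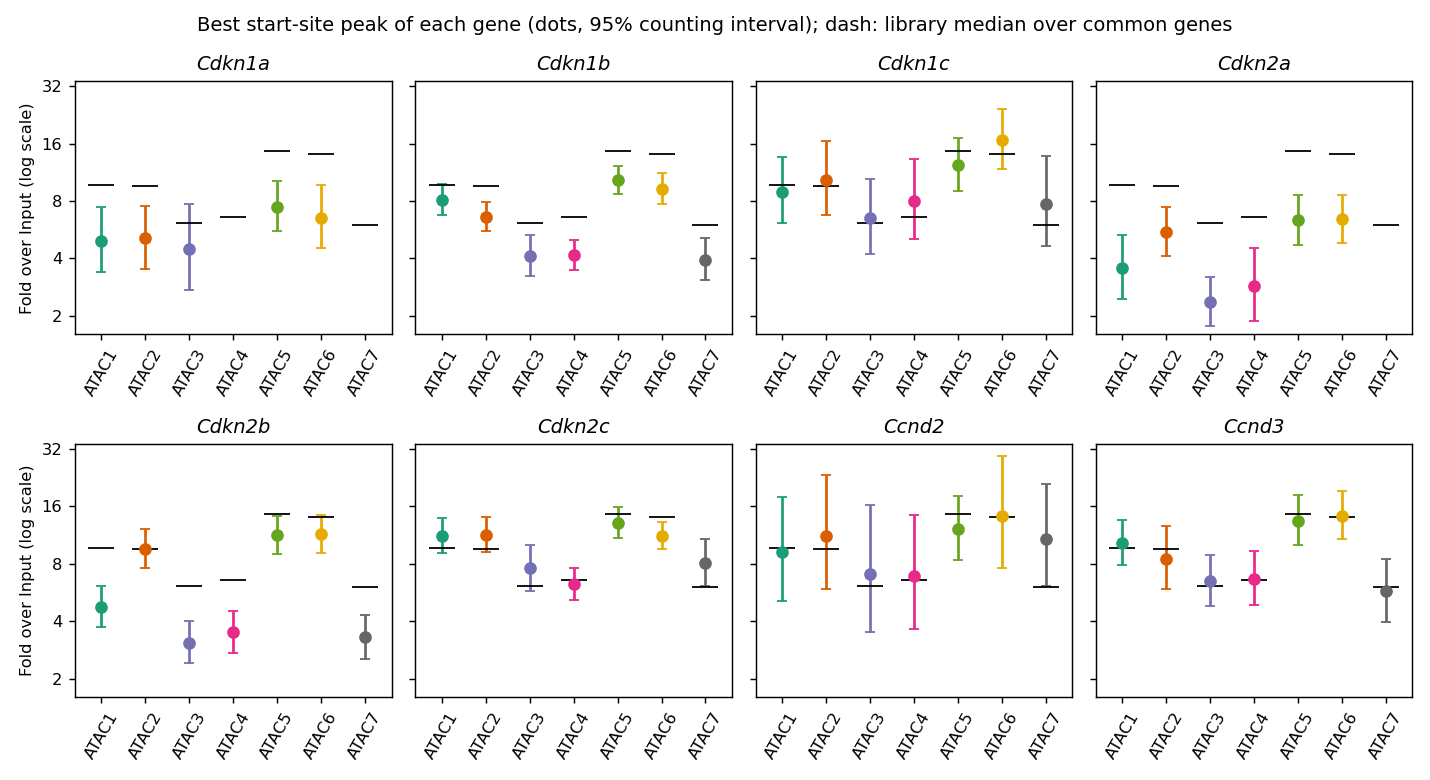
Authors' fold over Input (log axis) of the best-ranked start-site peak of 8 genes in each library; dots are single libraries, bars the 95% counting interval, and the dash is the library's median over 8262 genes. Cdkn2b sat near the dash in ATAC2 (9.55) and at about 3.09 to 4.74 in ATAC1, ATAC3, ATAC4 and ATAC7, below the dash, whereas Ccnd3 followed the dash in all 7 libraries.

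Cdkn2c encodes p18Ink4c. At chr4:109333481-109339794 on the minus strand, it had the most reads in a start-site peak of any member, 1228 in ATAC6. These reads were counted over an outer region of 1565 bases, and the width of outer regions differed between peaks. For the 1000 reads of Cdkn1b in ATAC5 the width was 1118 bases. The region at the 5′ end of Cdkn2c, chr4:109339396-109339705 in the 5′ UTR, held 918, 735, 450, 688, 997, 1228 and 416 reads in ATAC1 to ATAC7. The fold was 11.2, 11.3, 7.57, 6.23, 13.1, 11.2 and 8.06 in that order. The inner start site at 109337977 had a peak in 6 libraries and none in ATAC7, and the best-ranked peak had folds from 2.31 in ATAC4 to 12.1 in ATAC5. These peaks lay at different distances from the start site. Narrow peaks next to it had folds of 11.6 in ATAC1, 11.2 in ATAC2, 12.1 in ATAC5 and 11.8 in ATAC6, on 57 to 78 reads against 7 to 11 in Input. The window also held the start-site region of Faf1, called in all libraries, and regions at the non-coding 9630013D21Rik, of which the best-ranked in a single library was chr4:109330052-109330302 in ATAC6 (104 reads, 48 in Input).

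Cdkn1a, Cdkn1b and Cdkn1c encode the CIP/KIP inhibitors. Cdkn1a encodes p21, the inhibitor induced by p53. Of its 3 start sites (chr17:29227924-29237667, plus strand), the one at 29230717 had a peak in 5 libraries, and those at 29227924 and 29235152 had none. The best peak held 137 reads in ATAC1, 126 in ATAC2, 89 in ATAC3, 249 in ATAC5 and 154 in ATAC6, with folds of 4.95, 5.10, 4.49, 7.48 and 6.55 in that order. The ATAC3 peak lay in another place, 760 bases downstream, while the other 4 were within 66 bases of the start site, and with a limit of 500 bases ATAC3 had no start-site peak of Cdkn1a. No peak was listed within 1000 bases in ATAC4 and ATAC7. The region with most libraries at that start site, chr17:29231431-29231924, was in 5. A region in ATAC5 alone, chr17:29231094-29231341, held 187 reads against 48 in Input.

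An intronic region of Cdkn1a further downstream, singled out after its values were seen, was listed in all 7 libraries. It spans chr17:29232259-29232584, and its nearest edge was 1542 bases from the start site. It held 551, 351, 369, 223, 639, 472 and 347 reads in ATAC1 to ATAC7. The fold was 6.70, 6.23, 6.31, 4.68, 12.3, 7.21 and 4.97 in that order. ATAC4 and ATAC7 thus had no listed peak at the start site and a peak in the intron behind it. With start sites counted out to 2000 bases, a setting chosen after seeing the data, the members counted rose from 7 to 8 in ATAC4 and from 6 to 7 in ATAC7. The share of all protein-coding genes at that distance is not given here, so the rise cannot be set against that of other genes.

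Cdkn1b encodes p27, whose level is set largely by protein turnover. Its start-site region (gene at chr6:134870419-134875531, plus strand; region chr6:134870260-134870684) was called in all 7 libraries. It held 911, 684, 347, 598, 1000, 823 and 297 reads in ATAC1 to ATAC7. The fold was highest in ATAC5 (10.3) and ATAC6 (9.25), followed by ATAC1 (8.11) and ATAC2 (6.59), and lowest in ATAC4 (4.15), ATAC3 (4.12) and ATAC7 (3.95). Relative to the library median all 7 values were below 0, from -0.67 in ATAC4 to -0.25 in ATAC1. A region in ATAC3 alone, chr6:134870693-134871030 in the 5′ UTR, held 240 reads against 56 in Input.

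The highest folds of the Cdkn1b window lay behind the gene and not at its start. The region chr6:134878384-134878857, between genes and 7965 bases from the start site, was called in all 7 libraries. Its fold was 23.7 in ATAC5, 20.7 in ATAC6, 14.9 in ATAC1, 14.7 in ATAC2, 10.2 in ATAC7, 9.98 in ATAC3 and 8.94 in ATAC4, higher than at the start site in each of the 7 libraries. The reads ranged from 395 in ATAC4 to 987 in ATAC6 against 48 to 76 in Input. Another region nearer the gene, chr6:134876871-134877714, was called in 6 libraries and not in ATAC4, with folds from 2.30 to 6.00.

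Cdkn1c encodes p57 and is an imprinted gene expressed from the maternal allele. It lies at chr7:150644255-150646955 on the minus strand, and its start-site region, chr7:150646933-150647132, was called in all 7 libraries. The reads were 219, 164, 155, 148, 330, 371 and 119 in ATAC1 to ATAC7, with 17 to 46 in Input. The fold was 8.96, 10.4, 6.51, 7.98, 12.3, 16.7 and 7.72 in that order, and 16.7 in ATAC6 was the highest start-site fold of any member as deposited. Scaled by common regions it was 10.7, below 11.2 in ATAC7, and the highest of any member was then Ccnd2 in ATAC7 (15.6). The deposited fold's interval in ATAC6 (11.8 to 24.3) lay above that of ATAC3 (4.22 to 10.5) and overlapped those of the other 5. The window held only 3 regions, and the others were called in ATAC5 alone, the better ranked being chr7:150645585-150645677 in an intron (59 reads, 20 in Input). The alleles were not told apart.

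Ccnd1, Ccnd2 and Ccnd3 encode the D cyclins, and their start sites differed. Ccnd1 (chr7:152115836-152125774, minus strand), a target of mitogen and Wnt signals, had no peak within 1000 bases of its coding start site at 152125774 in any library. Its only start-site peak, chr7:152123562-152123619 in ATAC6, lay 483 bases from the start of a transcript with a retained intron, and held 63 reads against 30 in Input (fold 3.31, interval 2.11 to 5.29). Just outside the limit, 1480 bases upstream of the coding start, the region chr7:152127254-152127603 was called in ATAC1, ATAC5 and ATAC6. Its folds were 2.26, 3.88 and 2.32, with 75 to 111 reads against 44 to 51 in Input. The region of the window called in all 7 libraries, with folds from 8.53 to 17.4, lay at the start sites of Oraov1 and AC161763.1. The best-ranked region in a single library, chr7:152100955-152101275 in ATAC3, was at those genes too (274 reads, 37 in Input).

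Ccnd3 is known for its part in lymphoid and erythroid growth. It spans chr17:47642000-47736632 on the plus strand and has an outer and an inner start site. The inner start site at 47730416 had a peak in all 7 libraries, with 519, 188, 321, 271, 409, 490 and 182 reads in ATAC1 to ATAC7. The fold was 10.3, 8.48, 6.48, 6.67, 13.5, 14.3 and 5.74 in that order. The outer start site at 47642000 had a peak in ATAC1, ATAC3, ATAC5 and ATAC6, with 62 to 91 reads. Relative to the library median, the inner start site stayed between -0.17 and 0.09. That range of 0.26 was smaller than the range of nearly every gene, as 1.97% of the 8262 genes had a smaller one.

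Ccnd3 had 13 regions, of which 4 were in all 7 libraries, in a window of 134633 bases that was the longest of the members (42701 to 65270 bases in the others). They included the start sites of the neighbours Taf8, and Bysl with Med20. An intronic region, chr17:47648151-47648313, had folds of 21.5 in ATAC5, 20 in ATAC6, 13.2 in ATAC1, 12.2 in ATAC2, 9.93 in ATAC7, 8.68 in ATAC4 and 8.37 in ATAC3, higher than at the inner start site in each library. A further intronic region, chr17:47645046-47645374, was called in 6 libraries with folds from 9.79 to 17.7, and ATAC5 had a separate peak just before it. The best-ranked region in a single library, chr17:47658675-47658690 in ATAC1, held 98 reads against 29 in Input.

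The bases that all 7 peaks shared in the intronic or distal regions of Cdkn1a, Cdkn1b and Ccnd3 are given below, because these regions were listed in every library. They are written on the plus strand of mm9 with the same motifs in capitals.
Cdkn1a intron (chr17:29232306-29232469): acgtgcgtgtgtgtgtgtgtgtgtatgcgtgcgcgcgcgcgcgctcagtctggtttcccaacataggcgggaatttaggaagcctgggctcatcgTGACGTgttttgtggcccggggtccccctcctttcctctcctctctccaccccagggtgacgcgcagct
Cdkn1b distal (chr6:134878728-134878835): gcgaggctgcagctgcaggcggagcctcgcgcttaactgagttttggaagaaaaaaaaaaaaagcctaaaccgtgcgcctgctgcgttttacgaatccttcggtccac
Ccnd3 intron (chr17:47648186-47648282): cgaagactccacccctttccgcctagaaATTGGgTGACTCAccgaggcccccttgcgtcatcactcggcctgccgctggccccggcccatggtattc

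The Cdkn1a sequence, which begins with a repeat of alternating bases, held TGACGT in 1 place. The Ccnd3 sequence held the AP-1 motif TGACTCA and the CCAAT box, 1 each, and none of the motifs was found in the Cdkn1b sequence. Among 1155 regions away from start sites that were called in all libraries, cut to the same length, 5.11% held TGACGT, 8.14% held TGACTCA and 13.1% held the CCAAT box.

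**Figure D3:**
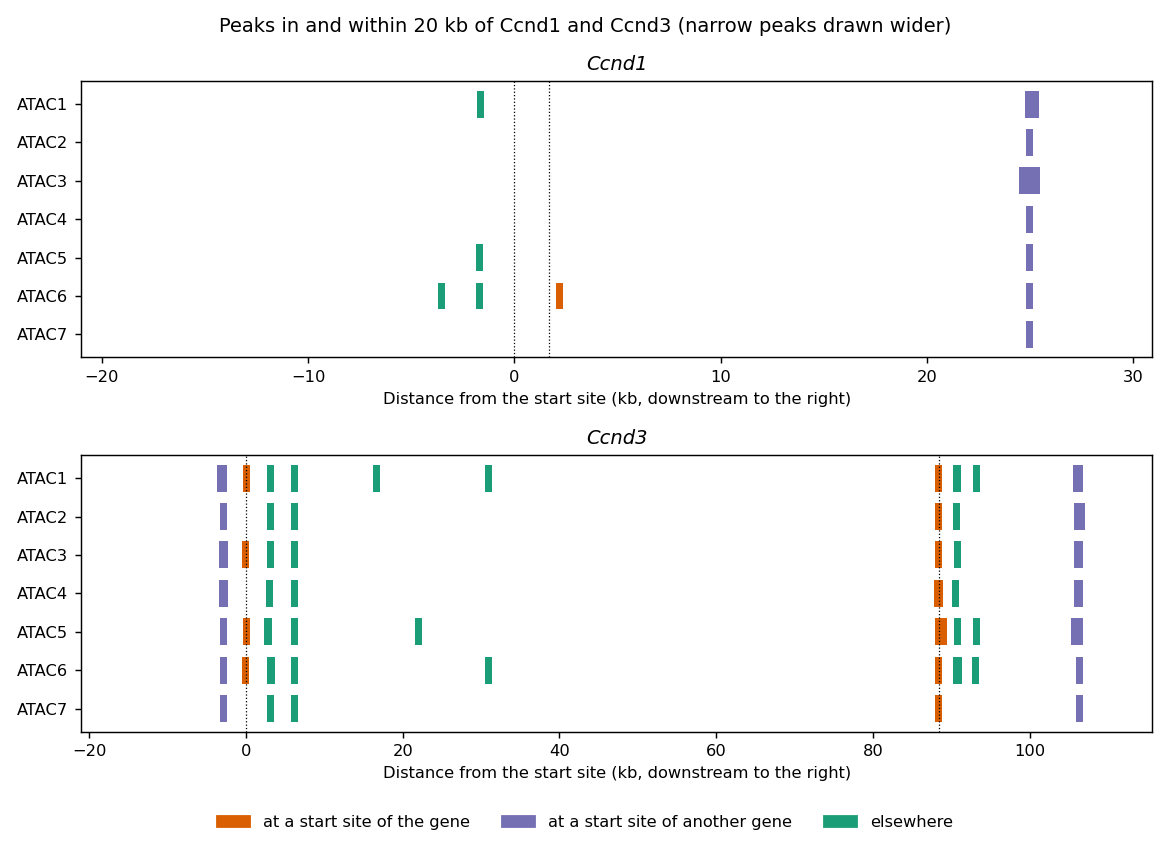
Peaks in and within 20 kb of Ccnd1 and Ccnd3 in each library, by distance in kb from the 5′ end of the gene; dotted lines are start sites, colours the class of the peak, and narrow peaks are drawn wider than they are. No peak lies on the coding start site of Ccnd1 at 0, while Ccnd3 had a peak at its inner start site and in its intron in all 7 libraries.

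Ccnd2 encodes cyclin D2, was open at its start site in every library and had peaks around it in 5. It lies at chr6:127075797-127101066 on the minus strand, and its start-site region, chr6:127100732-127101132, was called in all 7 libraries. The reads were few, 97, 78, 63, 67, 227, 99 and 127 in ATAC1 to ATAC7, with 9 to 32 in Input. The fold was 9.16, 11.2, 7.06, 6.89, 12.1, 14.2 and 10.8 in that order, and the intervals of all pairs of libraries overlapped. Relative to its library, ATAC7 was the highest at 0.84, and the other 6 lay between -0.27 and 0.23.

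Around the start site, ATAC1, ATAC2, ATAC5, ATAC6 and ATAC7 each had 4 peaks of Ccnd2 away from all start sites, and ATAC3 and ATAC4 had 0. This pattern was singled out after its values were seen. The intronic region chr6:127097870-127097955 had folds of 11.2 in ATAC1, 18.7 in ATAC2, 28.2 in ATAC5, 21.2 in ATAC6 and 9.55 in ATAC7, with 52 to 99 reads against 6 in Input, so that the interval in ATAC5 ran from 12.5 to 78.9. The intronic region chr6:127092267-127092690 had folds from 3.84 in ATAC7 to 5.83 in ATAC5. Upstream, within the non-coding 9330179D12Rik, chr6:127102263-127102677 was called in the same 5 libraries, and chr6:127104996-127105188 in ATAC2, ATAC5, ATAC6 and ATAC7. The best-ranked region in a single library was chr6:127112970-127113094 in ATAC1 (37 reads, 8 in Input).

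Of all protein-coding genes, 1.50% had peaks away from start sites in these 5 libraries and in neither ATAC3 nor ATAC4, and Ccnd2 was the only member among them. ATAC7 had fewer peaks in its whole list (15188) than ATAC3 (16027) or ATAC4 (15650). The equal number of peaks depended on list length: in lists cut to the best 15188 peaks, a comparison added after seeing the data, 2 of these peaks were left in ATAC1, 1 in ATAC2 and 2 in ATAC6, while ATAC5 and ATAC7 kept 4 and ATAC3 and ATAC4 had 0. Start-site peaks of stromal marker genes were also fewest in ATAC3 (2 of 10) and ATAC4 (1 of 10), though ATAC1, with the Ccnd2 peaks, had only 3. Pdgfrb had a peak in the same 5 libraries as these Ccnd2 peaks and in no other, and Col1a1 and Kitl in these 5 and in ATAC3. The other stromal markers differed from this pattern. Pdgfra had a peak in ATAC4 and none in ATAC1 and ATAC3, and Col1a2 had none in ATAC1, ATAC3 and ATAC4. Cxcl12 had one in ATAC2 and ATAC5 only, and Ly6a, Prrx1, Lepr and Vcam1 had none in any library. Haematopoietic markers numbered 4 in ATAC3 and 3 in ATAC4, within the 3 to 6 of all libraries. The part of the cell makeup in the Ccnd2 peaks was not tested.

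**Figure D4:**
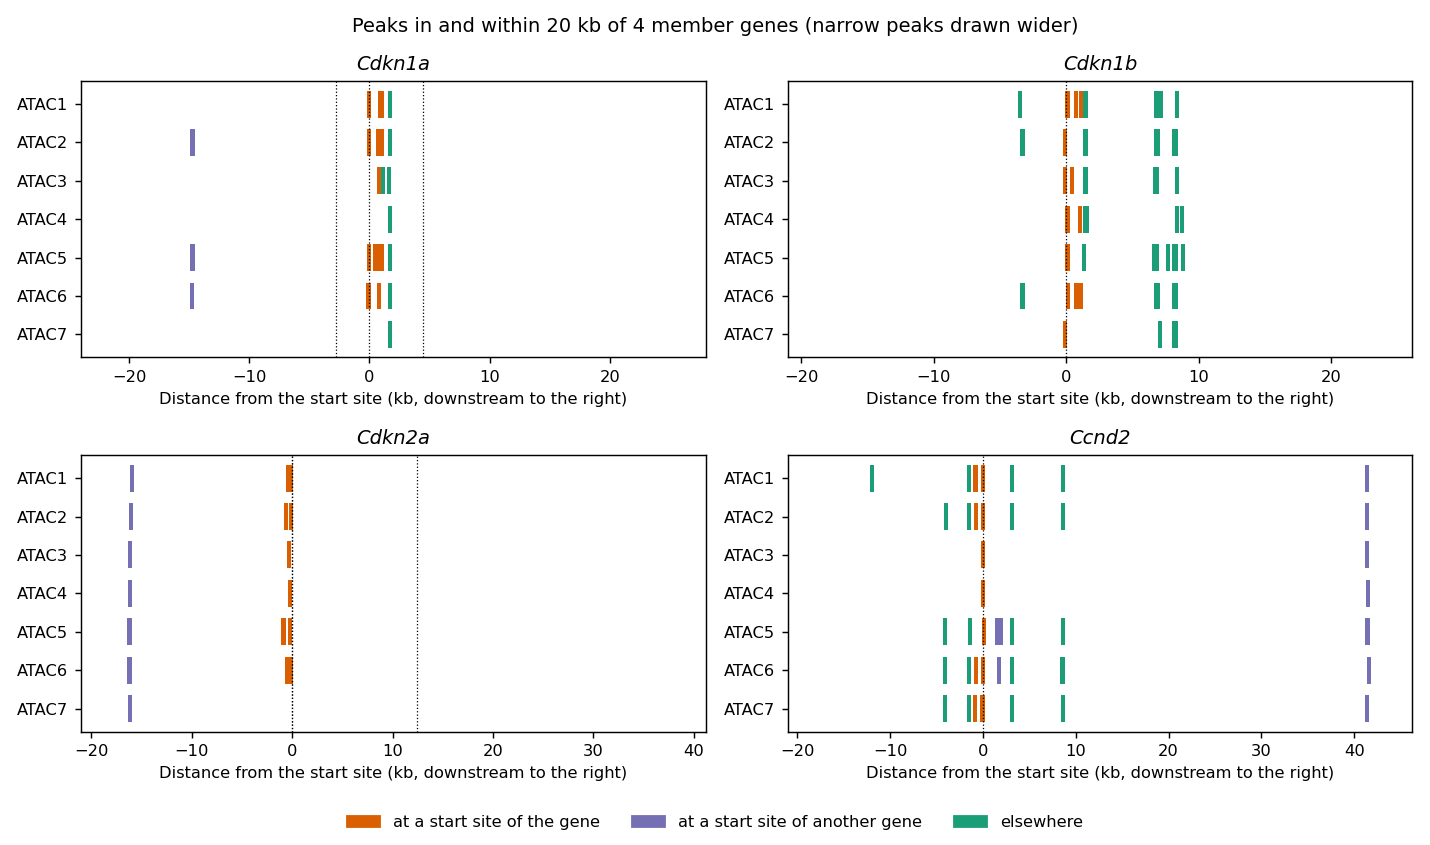
Peaks in and within 20 kb of Cdkn1a, Cdkn1b, Cdkn2a and Ccnd2 in each library, by distance in kb from a start site (the one at 29230717 for Cdkn1a, the 5′ end for the others); dotted lines are start sites, colours the class of the peak, and narrow peaks are drawn wider than they are. Cdkn1a had an intronic peak in all 7 libraries, Cdkn2a had no peak at its inner start site, and the intronic and upstream peaks of Ccnd2 were absent in ATAC3 and ATAC4.

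Over the windows of all 9 genes there were 241 peaks: 46 in ATAC5, 44 in ATAC1, 41 in ATAC6 and 35 in ATAC2, and fewer in ATAC3 (29), ATAC4 (25) and ATAC7 (21). All 9 members had a window peak in each library, against 69.9% of protein-coding genes in ATAC5, 69.1% in ATAC2, 68.8% in ATAC6, 65.4% in ATAC1, and less in ATAC3 (59.0%), ATAC4 (58.7%) and ATAC7 (57.9%). For Ccnd1 in ATAC2, ATAC3, ATAC4 and ATAC7, and for Cdkn2a in ATAC7, every window peak lay at a start site of another gene. Per 10000 peaks of the library there were 18.0 in ATAC1 and 18.1 in ATAC3, against 10.8 in ATAC2. Merging gave 55 regions, of which 19 were at a start site of a member, 13 at that of another gene and 23 elsewhere. Of these regions 14 were called in all 7 libraries and 17 in 1, and 8 of the 17 were in ATAC5. Over the genome, 16.6% of 50683 regions were called in all libraries and 40.9% in 1.

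Peaks away from every annotated start site were found for Cdkn1a, Cdkn1b and Ccnd3 in all 7 libraries, for Ccnd2 in 5, for Ccnd1 in 3, for Cdkn1c in 1, and for the 3 INK4 genes in none. The number of members with such a peak was 6 of 9 in ATAC5 (36.7% of all protein-coding genes), 5 in ATAC1 (29.0%) and in ATAC6 (34.8%), 4 in ATAC2 (34.6%) and in ATAC7 (14.5%), and 3 in ATAC3 (14.7%) and in ATAC4 (14.9%).

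**Figure D5:**
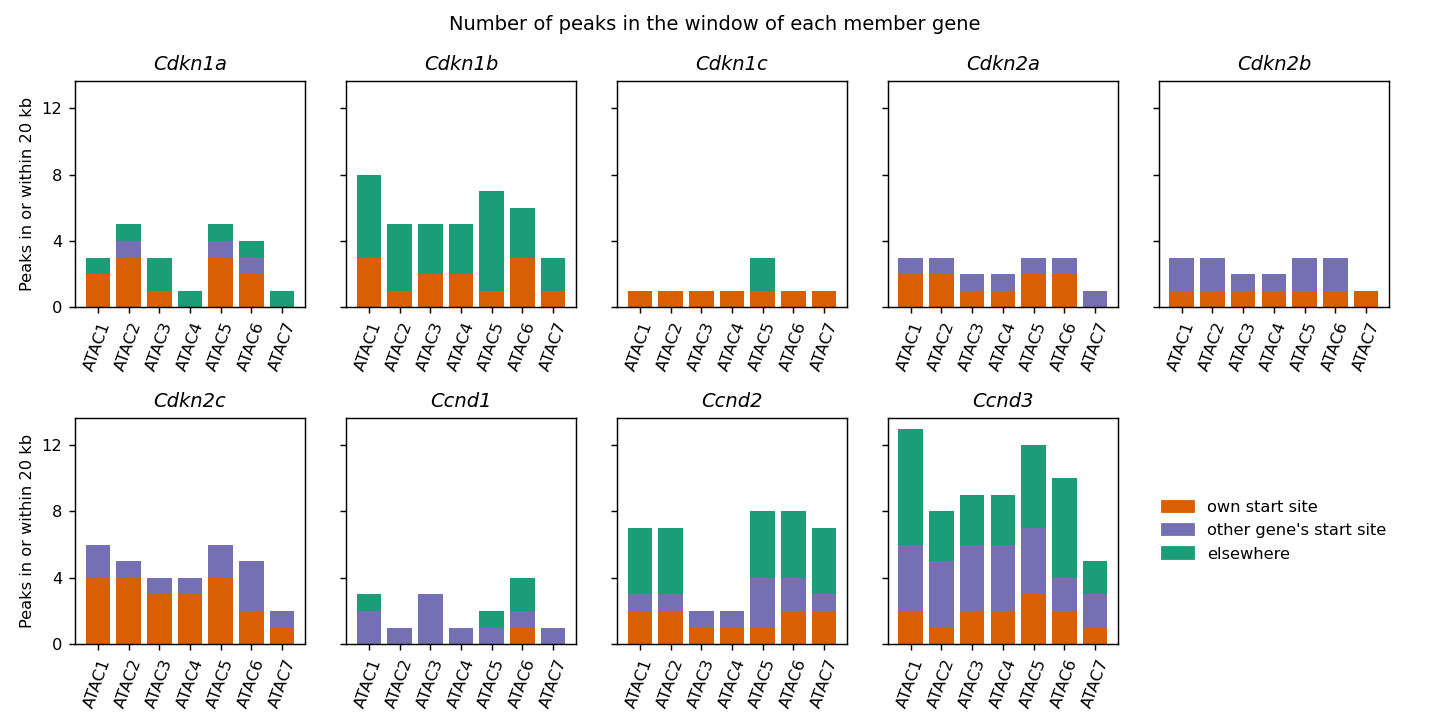
Number of peaks in and within 20 kb of each gene in each library, stacked by class: at a start site of the gene, at a start site of another gene, or elsewhere. Ccnd3 reached 13 peaks in ATAC1, Ccnd2 had 2 peaks in ATAC3 and ATAC4 and 7 or 8 in the others, and the INK4 genes had no peak in the class elsewhere.

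By the median of the relative level over the libraries with a peak, the order from the lowest was Cdkn2a (-1.20), Cdkn1a (-0.96), Cdkn2b (-0.87), Cdkn1b (-0.58), Ccnd3 (0.02), Ccnd2 (0.06), Cdkn1c (0.12) and Cdkn2c (0.21), with Ccnd1 at -2.09 in its only library. The lower 4 had ranges over libraries that overlapped with their neighbours, as did the upper 4. The ranges of the lower and the upper genes also overlapped in part, as Cdkn2b reached 0.00 and Cdkn1b (-0.67 to -0.25) met Cdkn2c (from -0.33). Over all 7 libraries the spread of the relative level was widest in Ccnd2 (1.11) and Cdkn2b (1.03) and narrowest in Ccnd3, and 89.8% and 87.0% of genes varied less than the former pair, respectively. Without ATAC7, a comparison added after seeing the data, the spread of Ccnd2 was 0.50, and its start-site intervals overlapped in all pairs of libraries. On the fold itself the order differed, as the highest fold of Ccnd2 was 2.05 times its lowest and 4.73% of genes had a smaller ratio.

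Genes with the same calls and the closest folds at the start site were Thtpa for Cdkn1a (mean absolute log2 difference 0.11 over 5 libraries), Dusp12 for Cdkn2a (0.10 over 6) and, over 7 libraries, Minpp1 for Cdkn1b (0.09), Spryd4 for Cdkn1c (0.08), Ndrg2 for Cdkn2b (0.13), Trim21 for Cdkn2c (0.10), Timm10 for Ccnd2 (0.13) and Ppfia1 for Ccnd3 (0.05). The nearest gene was the closest of 166 for Cdkn1a, of 396 for Cdkn2a and of 8261 for the others.

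Among 32 other genes of the cell cycle, 25 had a start-site peak in all 7 libraries, 6 in some and 1 in none. The shares over all protein-coding genes were 37.0% in all libraries and 43.1% in none. All 3 pocket proteins (Rb1, Rbl1, Rbl2), the p53 axis (Trp53, Mdm2, Mdm4) and the p27 turnover genes Skp2 and Cks1b were called in every library, as were 7 of 8 E2F genes. Cdkn2d, the remaining INK4 gene, had no peak in any library. Ccna1, a cyclin known from the germ line, had a peak in ATAC2 and ATAC6 only, with 48 to 54 reads and folds of 2.91 to 3.88. Of the partners of the D cyclins, Cdk4 was called in all libraries (fold 6.67 to 24.6) and Cdk6 in all but ATAC5 (6.21 to 16.5). Cdk2 lacked a peak in ATAC4 (5.26 to 14.6 in the others) and E2f8 in ATAC1 (7.53 to 21.7 in the others). Among Polycomb genes known to act on the Ink4 locus, Ezh2 was called in all, Cbx7 in all but ATAC2 (3.56 to 10.03) and Bmi1 in all but ATAC5 and ATAC6 (5.89 to 8.62).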

How the data were processed

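Peak lists of 7 ATAC-seq libraries of mouse bone marrow stromal cells were used, each called by the authors against 1 Input library. Per the methods of the study, reads were aligned to mm9 with bowtie and peaks were called with the two-sample mode of CisGenome (p-value limit 1e-05, FDR under 0.01). A shift of reads for Tn5 and a duplicate filter are not given in the sources used here, and without the former peak edges can lie a few bases off. The deposited tables hold read counts, for the library and for Input, over a wider outer region around each peak, a fold over Input, and signal columns of the peak caller. The deposited fold is a ratio of scaled library reads to Input reads plus 0.01. The authors' signal values were not compared.

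Genes and start sites came from GENCODE vM1 on mm9. Each gene's best-ranked start-site peak gave its reads (exact Poisson) and fold (conditional binomial interval, 95%). Peaks sharing at least 1 base were merged. With 1 library per title there was no test. Library totals were not used here, so depth is given by the reads of each peak, and the number of reads limits the precision. The assignment of peaks was tested on simulated data. Members, gene lists, markers and motifs were chosen with earlier results of these data known. Regions named by rule were the start-site region of each member called in most libraries and its best-ranked region in a single library; distal regions were chosen after their values were seen. Alternatives changed the peaks, distances, merging and scaling. Scripts used Python 3.11.15 with pandas 2.3.3, scipy 1.17.1, numpy 2.4.6 and, for plots, matplotlib 3.10.9. Some promoter sequences are not reported here.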

Additional observations from a re-analysis of the deposited data

How the results depend on the processing

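No paired analysis was possible because there was 1 library per title, with no replicate numbers to share. Of 160 counts recomputed under other settings, 144 stayed within 1.5 times the reported count. The 54 start-site calls of members fell to 20 when a peak had to cover the start site itself, with 4 members in ATAC4, ATAC5 and ATAC6, 3 in ATAC1, 2 in ATAC3 and ATAC7 and 1 in ATAC2. With a fold of at least 5 required, ATAC1 had 5 members and ATAC3 had 4 at start sites, and their window peaks fell to 28 and 16. With lists of equal length (15188 peaks), window peaks fell to 26 in ATAC5 and 25 in ATAC6, and the Ccnd1 peak of ATAC6, at rank 19675, was lost. Regions in 1 library numbered 7 with outer regions and 9 with peaks merged within 200 bases, against 17. Within 2000 bases of a start site, a setting chosen after seeing the data, there were 58 calls. Shares of all protein-coding genes under these settings are not given here, so the changes cannot be read as particular to the members. Of the folds, 26 moved beyond their counting interval under scaling by common regions and 5, all of Cdkn2c, when all start-site regions were summed; the order of libraries for a gene therefore depends on the scaling, except that ATAC2, ATAC5 and ATAC6 stayed highest for Cdkn2b. Start-site folds of Ccnd2 rest on 9 to 32 Input reads and its intronic folds on as few as 6, which limits their precision.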
